A study of Mus musculus with 6 samples.

Results

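Stag3 and Mlh3 are meiotic genes, and 5 of the 831 transcripts in the authors' deposited comparison table belong to them. The members are the rows with either symbol plus every row that carries the same merged locus identifier. This gave 4 transcripts at the Stag3 locus and 1 at the Mlh3 locus. Of the Stag3-locus transcripts, 2 are annotated and 2 are models that the authors' assembly added. The members were chosen from a table that lists a transcript only where the authors' adjusted p for the diet was under 0.05. The diet differences below are therefore a description of values that chose these rows, with no test. The members' own adjusted p-values lay between 0.00199 and 0.0195 in the authors' deposited table, and transcripts just outside the threshold were not analysed here.

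The study sequenced strand-specific RNA-seq libraries of whole testis from C57BL/6 mice. A group of 3 libraries, numbered 7, 8 and 9, came from mice on normal food for 8 weeks, and a group of 3, numbered 10, 11 and 12, from mice on high-fat food for 8 weeks. The series calls the latter mice obese. The labels give no age or body weight and do not say that each library is a separate animal, so the spread between libraries may be partly technical. Whole testis mixes germ cells of all stages with somatic cells, and fewer cells of a type and less RNA per cell cannot be told apart in such samples. Each library holds 362790 to 490603 counts over the listed transcripts, and its full depth is not known from them.

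Cohesin is a ring-shaped complex that holds sister chromatids together. In meiosis, germ cells replace several of its subunits with germline forms, and STAG3 is the meiotic stromal antigen subunit, which joins the kleisins REC8 and RAD21L and the chromosome axis. Male mice without Stag3 are known to arrest in meiotic prophase and to be infertile. MLH3 is a MutL homolog with endonuclease activity that is needed for crossovers between homologous chromosomes.

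The Stag3-locus transcripts differ at their starts and ends, and the annotated models also differ in their exons, as the map of the models shows. In GRCm38 coordinates, the retained-intron transcript ENSMUST00000161113 runs on the plus strand of chromosome 5 from 138280509 to 138315504 in the deposited table, with 33 exons and 7780 bases. The annotated coding transcript ENSMUST00000160729, flagged as non-canonical, runs from 138280240 to 138290913 with 7 exons and 1151 bases. The assembled transcript MSTRG.23727.2 runs from 138280240 to 138315504 and MSTRG.23727.4 from 138280279 to 138315504, with 34 exons each and 7671 and 7666 bases. The canonical coding transcript ENSMUST00000048028, which has 34 exons and 4211 bases in GENCODE M21, is not listed and was not analysed here. GENCODE M21 holds 9 Stag3 models, and 7 of them are not listed.

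**Figure D1:**
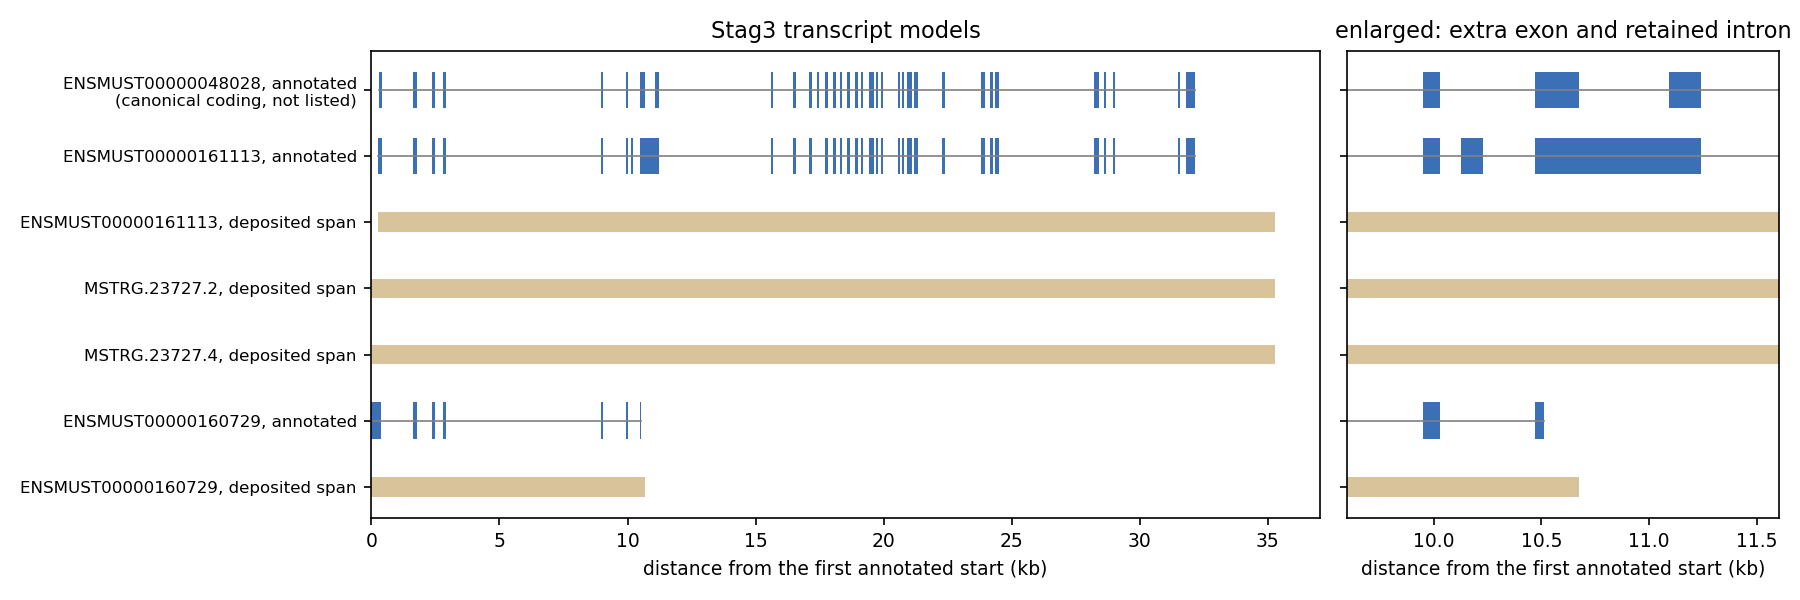
Transcript models of the Stag3 locus, with the distance from the first annotated start in kilobases on the horizontal axis. Blue boxes are GENCODE M21 exons and tan bars are the spans given in the deposited table, for which no exon positions are given. The enlarged panel shows the extra exon and the retained intron of ENSMUST00000161113, and the short coding transcript ending at the left edge of that intron.

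Each of the 3 long transcripts ends 3111 bases past the last annotated Stag3 base. For ENSMUST00000161113 the deposited length exceeds the annotated 4669 bases by the same 3111, so the whole gain lies in that extension of the last exon. The short transcript ENSMUST00000160729 was extended by 162 bases, to position 138290913. This is the last base before the intron that ENSMUST00000161113 retains. Reads in exons that the models share do not distinguish them, and the counts of each row rest on how the authors' software divided such reads.

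ENSMUST00000161113 starts 17 bases before the canonical model in GENCODE M21 and differs from it in 3 internal stretches. The sequences of these stretches are printed 5′ to 3′ on the plus strand because they define the most abundant annotated member. It has an extra exon of 105 bases at chr5:138290366-138290470, it keeps an intron of 416 bases at chr5:138290914-138291329, and it lacks an exon of 80 bases at chr5:138297623-138297702. Read from the start codon of the canonical model, its frame meets a TAG stop in the extra exon after 189 codons, where the canonical frame runs for 1240 codons. GENCODE gives ENSMUST00000161113 no coding sequence. In the extra exon the stop codon is in capitals. At the boundaries of the retained intron, shown with 20 bases of exon and 60 of intron, the capitals mark the first and last bases of the intron.
Extra exon: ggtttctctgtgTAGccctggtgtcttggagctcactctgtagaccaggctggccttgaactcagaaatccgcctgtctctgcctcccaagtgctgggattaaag
Retained intron, 5′ boundary (chr5:138290894-138290973): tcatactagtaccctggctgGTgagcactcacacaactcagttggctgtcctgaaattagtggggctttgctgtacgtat
Retained intron, 3′ boundary (chr5:138291270-138291349): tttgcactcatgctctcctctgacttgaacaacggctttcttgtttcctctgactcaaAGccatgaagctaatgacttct
Exon absent from ENSMUST00000161113: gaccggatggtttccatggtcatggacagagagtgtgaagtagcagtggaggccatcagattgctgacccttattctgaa

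The extra exon shares short sequences with many other genes. Of its 86 overlapping words of 20 bases, 71 occur on either strand in a GENCODE M21 transcript of another gene, and the most common word occurs in 1222 of 55340 genes. Of the 397 words of the retained intron, 10 occur in another gene. Of the 61 words of the absent exon, 0 do. Whether reads from other genes entered the counts of ENSMUST00000161113 was not tested.

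The starts of the Stag3 transcripts are shown in the RefSeq promoter window of the gene (GRCm38.p6, plus strand, chr5:138280259-138280558), which covers 250 bases before and 50 after the annotated start. Capitals mark the first 10 bases from the start of MSTRG.23727.4, which lies at -230 bases from the RefSeq start, and from that of ENSMUST00000161113, which coincides with the RefSeq start. The shared start of MSTRG.23727.2 and ENSMUST00000160729 lies at -269 bases, outside the window.
Stag3 promoter: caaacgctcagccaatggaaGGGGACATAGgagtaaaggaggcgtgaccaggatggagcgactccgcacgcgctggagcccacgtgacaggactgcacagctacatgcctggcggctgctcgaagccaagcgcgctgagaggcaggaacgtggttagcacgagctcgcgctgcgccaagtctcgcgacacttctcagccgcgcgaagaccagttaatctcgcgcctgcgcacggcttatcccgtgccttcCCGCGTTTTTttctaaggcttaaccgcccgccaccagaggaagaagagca

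The Mlh3 member, ENSMUST00000166821, is a coding transcript on the minus strand of chromosome 12, from 85234529 to 85270599 in the deposited table, with 12 exons and 5428 bases. Its coding exons match those of the canonical transcript ENSMUST00000019378 base for base, at 4233 coding bases. The 2 models differ by 26 bases at the end of the first exon and by 9 bases at the 3′ end. No base of ENSMUST00000166821 is absent from all other Mlh3 models in GENCODE M21, and 1 intron is its own. Its count therefore rests on the splice out of its first exon and on how shared reads were divided. The first exon is shown in capitals in the RefSeq promoter window (GRCm38.p6, minus strand, chr12:85270550-85270849), and the lower-case letters after its 35 bases begin the intron.
Mlh3 promoter: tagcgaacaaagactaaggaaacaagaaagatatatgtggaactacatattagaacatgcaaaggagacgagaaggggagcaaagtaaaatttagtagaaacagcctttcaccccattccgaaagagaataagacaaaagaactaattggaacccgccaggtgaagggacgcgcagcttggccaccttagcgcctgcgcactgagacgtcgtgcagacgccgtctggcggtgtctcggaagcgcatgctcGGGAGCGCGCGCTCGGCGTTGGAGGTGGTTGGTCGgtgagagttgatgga

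All 4 listed Stag3-locus transcripts were lower on the high-fat diet, and the Mlh3 transcript was higher. Of 95751 transcripts the authors tested, 0.868% were listed, 0.387% as lower and 0.48% as higher. The rule used that contrast, so nothing is read from these shares. Levels are given below as scaled counts, which are the deposited estimated counts divided by the authors' size factor of each library. Means are given with the SD over 3 libraries per diet. A log2 fold change is high-fat over normal diet, from edgeR's quasi-likelihood fit on the listed rows that passed a low-count filter, with its SE. All fitted rows were called for this contrast, so the fold changes may be too large and the SE too small.

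**Figure D2:**
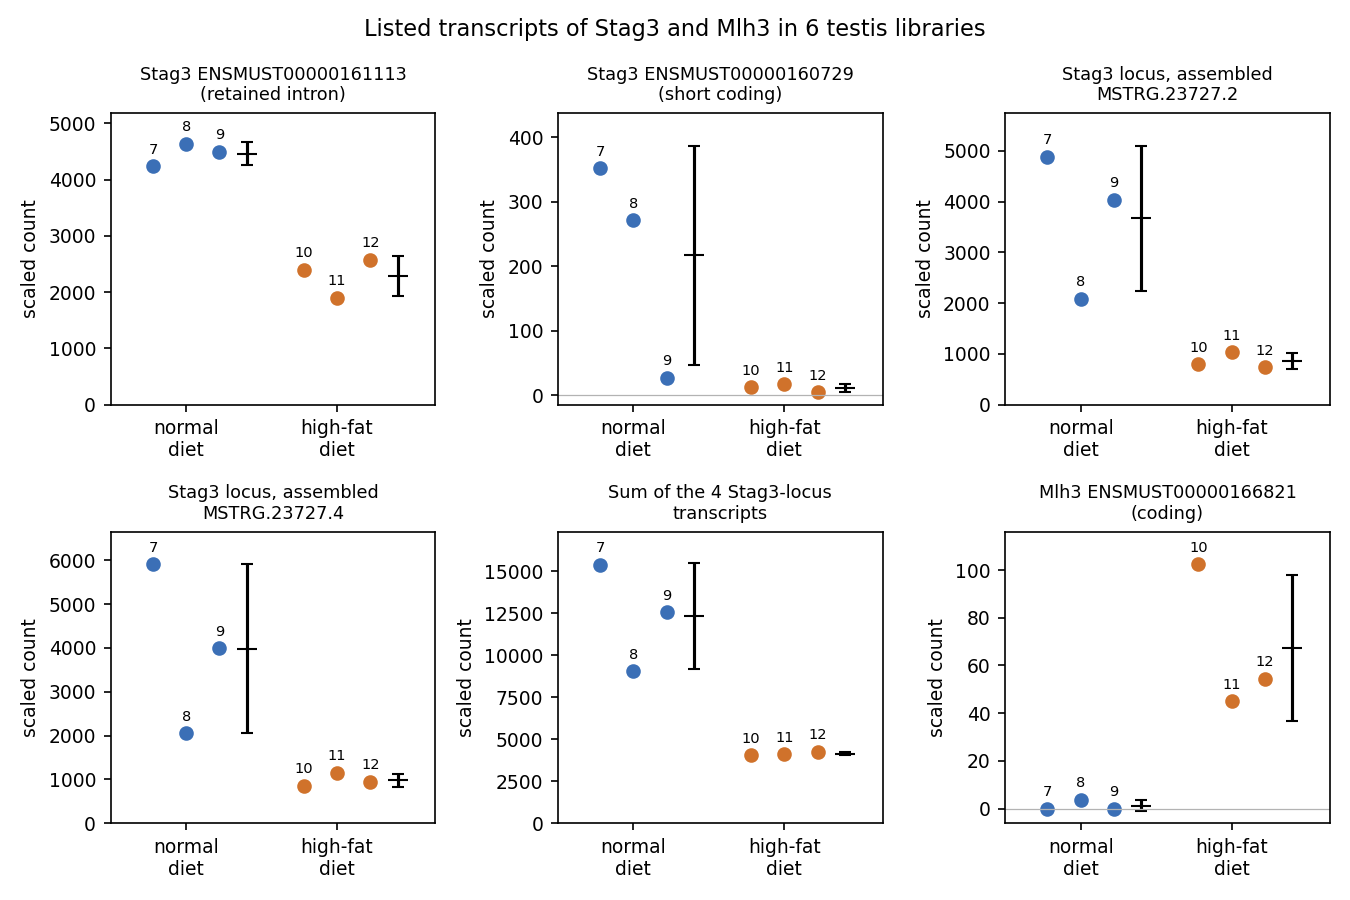
Scaled counts of the 5 listed transcripts and of the Stag3-locus sum, with 1 panel each and the vertical scale set per panel. Points are libraries with their numbers, and the black mark and bar are the mean and SD of 3 libraries. The diets do not overlap in any panel, and library 8 lies lowest among the normal-diet libraries in both assembled transcripts.

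The retained-intron transcript ENSMUST00000161113 was the most even member on the normal diet. It had 4236, 4638 and 4499 scaled counts in libraries 7, 8 and 9, and 2395, 1898 and 2579 in libraries 10, 11 and 12. The diets did not overlap, and the lowest normal-diet library was 1.64 times the highest high-fat library. The mean went from 4458 ± 204 to 2291 ± 352, a log2 fold change of -0.96 ± 0.19. The SD was 4.58% of the mean in libraries 7 to 9 and 15.4% in libraries 10 to 12.

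Both assembled transcripts were lower by a larger factor, and less even on the normal diet. MSTRG.23727.2 had 4883, 2088 and 4035 scaled counts in libraries 7 to 9 and 796, 1035 and 735 in libraries 10 to 12. MSTRG.23727.4 had 5907, 2050 and 3989 and then 852, 1147 and 943. In both, library 8 was the lowest normal-diet library, and the diets did not overlap. The log2 fold change was -2.10 ± 0.38 for MSTRG.23727.2 and -2.02 ± 0.42 for MSTRG.23727.4. The SD on the normal diet was 39.1% and 48.4% of the mean. Counts of MSTRG.23727.2 were between 0.779 and 1.02 times those of MSTRG.23727.4 in every library. The 2 models share their end and exon number. Their starts lie 39 bases apart but their lengths are 7671 and 7666 bases, so they also differ elsewhere in their exons. The exon positions are not given. The ratio may rest on how shared reads were divided, which was not tested.

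The short coding transcript ENSMUST00000160729 had the largest relative difference at the Stag3 locus and the fewest counts. It had 352, 271 and 26.7 scaled counts in libraries 7 to 9 and 12.1, 17.0 and 4.39 in libraries 10 to 12. Library 9 lay close to the high-fat libraries, at 1.57 times the highest of them. The mean went from 217 ± 169 to 11.2 ± 6.37, a log2 fold change of -4.27 ± 1.10. Library 9 was not low for the other Stag3-locus transcripts.

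Summed over the 4 listed transcripts, the Stag3 locus had 15378, 9048 and 12550 scaled counts in libraries 7 to 9 and 4055, 4098 and 4262 in libraries 10 to 12. The high-fat libraries were close to each other, with an SD of 2.64% of the mean against 25.7% on the normal diet. The mean sum on the high-fat diet was 33.6% of that on the normal diet, a log2 fold change of -1.57 ± 0.21. The assembled transcripts made up 71.0% of the difference in scaled counts and ENSMUST00000161113 made up 26.5%. This sum leaves out the canonical transcript and the other unlisted models, so it is not the total output of Stag3. Most loci of the table hold a single listed transcript, 686 of 750. Of the 64 loci with at least 2, 13 had all of them lower, Stag3 among them, 14 had all of them higher and 37 had both directions.

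The make-up of the listed counts varied within each diet. ENSMUST00000161113 held 27.5%, 51.3% and 35.8% of the locus counts in libraries 7, 8 and 9, and 59.1%, 46.3% and 60.5% in libraries 10, 11 and 12. The diets overlapped, since library 8 exceeded library 11. In library 8 the 95% Wilson interval of the share was 50.3% to 52.3% and in library 11 it was 44.8% to 47.9%. These intervals cover counting error only. The mean share was 38.2% ± 12 in the normal-diet libraries and 55.3% ± 7.81 in the high-fat ones. The assembled pair held 59.9% ± 12.7 and 44.4% ± 7.68. ENSMUST00000160729 held 2.29%, 3.0% and 0.213% in libraries 7, 8 and 9 and at most 0.415% in a high-fat library.

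**Figure D3:**
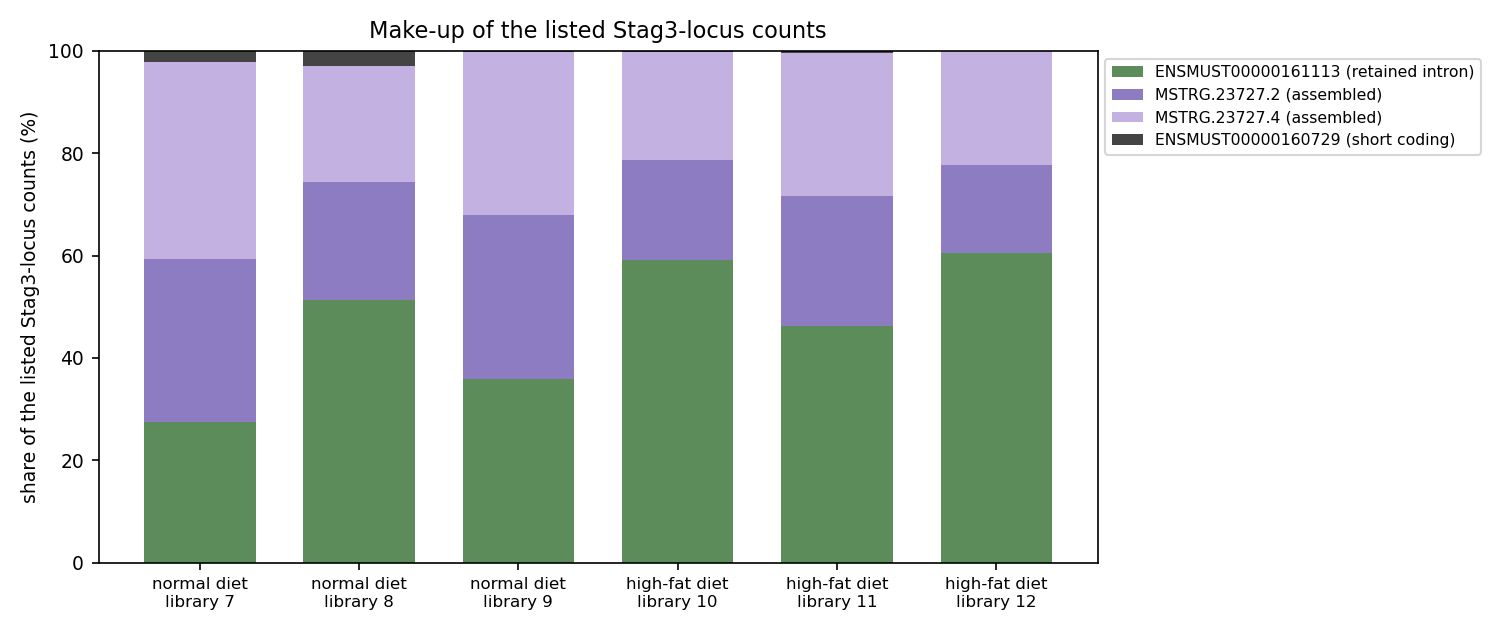
Share of the listed Stag3-locus counts held by each of the 4 transcripts, in percent, with 1 bar for each library. ENSMUST00000161113 held from 27.5% to 51.3% in the normal-diet libraries and from 46.3% to 60.5% in the high-fat libraries, so the diets overlap.

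Per kilobase of deposited length, the 3 long Stag3-locus transcripts had similar levels on the normal diet. ENSMUST00000161113 stood at 573 ± 26.3 scaled counts per kilobase, MSTRG.23727.4 at 519 ± 252 and MSTRG.23727.2 at 478 ± 187, and these neighbours did not differ beyond their spread. ENSMUST00000160729 followed at 188 ± 147. With high-fat food ENSMUST00000161113 led at 294 ± 45.3, above MSTRG.23727.4 at 128 ± 19.7 and MSTRG.23727.2 at 112 ± 20.7, which overlapped each other. ENSMUST00000160729 was at 9.71 ± 5.53. The Mlh3 transcript stood at 0.234 ± 0.405 with normal food and 12.4 ± 5.67 with high-fat food, near the level of ENSMUST00000160729 there.

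Mlh3 ENSMUST00000166821 had 0, 4 and 0 counts in libraries 7, 8 and 9, and 93, 45 and 62 in libraries 10, 11 and 12. Scaled, this is 1.27 ± 2.2 against 67.3 ± 30.8, and the diets did not overlap. Library 10 was the highest, at 102 scaled counts, and libraries 11 and 12 had 45.1 and 54.4. The ratio of summed counts, 200 against 4, was 50.5 after scaling, with a 95% exact binomial interval of 19.4 to 187 that covers counting error only. The log2 fold change was 5.57 ± 1.10. All 4 normal-diet counts came from library 8. Without it, setting libraries 7 and 9 to an assumed floor of 3 counts each gives a level 22.6-fold higher on the high-fat diet. This is not a lower bound, since library 8 had 4 counts and the interval over all libraries reaches down to 19.4. The canonical Mlh3 transcript, which encodes the same protein, is not listed, so these counts are not the output of Mlh3.

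By the smallest root mean square difference of centred log2 profiles over 6 libraries, 5 annotated transcripts were named for each of the leading members. Closest to ENSMUST00000161113, of 233 compared, were transcripts of Ivns1abp, Xist, 4930451G09Rik, Ssr3 and Gm9856, with differences of 0.138 to 0.163. The median over the compared transcripts was 1.83. Ivns1abp went from 403 ± 42.5 to 218 ± 15.1 scaled counts and the noncoding RNA Xist from 71.3 ± 3.13 to 34.1 ± 4.99. The assembled Stag3 transcripts were at 0.723 and 0.715. The 5 were picked from 233 for the smallest difference, so nothing is read from their lying nearer. Closest to the Mlh3 transcript were those of Tes, Epb41l1, Atp5pb, Wbp4 and Sbf1, at 0.830 to 0.954. Every transcript compared was listed for the same contrast. Such likeness therefore draws on the diet differences that chose the members and is a description only.

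Besides Stag3 and Mlh3, 126 genes were looked up in 7 lists of cohesin, crossover, strand exchange, synaptonemal complex, meiotic entry, sex chromosome silencing and division genes. An annotated transcript was listed for 2 of them, Rad21 and Sun1, beside 0.868% of all transcripts tested. That share is over transcripts and the count over genes, so the one cannot be read against the other. The log2 fold change in the authors' deposited table was -1.865 for Rad21 and 1.377 for Sun1, with a median of 1.42 over all listed transcripts. The lists of strand exchange, synaptonemal complex, sex chromosome silencing and meiotic division genes had 0 annotated transcripts listed, and the levels of unlisted ones were not analysed here. Rad21, the kleisin subunit of mitotic cohesin, had ENSMUST00000226529 at 41, 42 and 26 counts in libraries 7 to 9 and 7, 12 and 11 in libraries 10 to 12. Sun1, the nuclear envelope protein that tethers meiotic telomeres, had ENSMUST00000110883 at 215 ± 30.3 and 559 ± 68.2 scaled counts. Neither is flagged as canonical, and neither gene's diets overlapped.

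Assembled transcripts that overlap a listed gene on the same strand added 4 genes. Outside Stag3, the cohesin list then held 2 transcripts, over Rad21 and Cdca5, and both were lower. Cdca5 encodes sororin, which stabilises cohesin on chromatin, and MSTRG.14727.6 over it went from 382 ± 84.0 to 146 ± 38.7 scaled counts. That transcript overlaps 2 genes, so its name is uncertain. At crossover genes, directions differed. MSTRG.11223.10 over Slx4, the scaffold of structure-specific nucleases, went from 70.5 ± 35.4 to 1123 ± 644. MSTRG.22915.5 over Hfm1, a helicase needed for crossovers, had 1563, 1044 and 11 counts in libraries 7 to 9 and 4, 6 and 6 in libraries 10 to 12, and it also overlaps 2 genes. Library 9 was far below libraries 7 and 8 there, and also in ENSMUST00000160729 of Stag3. It was likewise far below them in the Leydig cell marker Hsd3b6, given below, so this is not particular to meiotic genes. MSTRG.15343.2 over the strand exchange factor Sfr1 went from 114 ± 35.4 to 377 ± 104. With assembled transcripts, 6 of the 126 genes had 1 listed transcript each, 3 higher and 3 lower, beside 0.48% of all transcripts tested listed as higher and 0.387% as lower.

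**Figure D4:**
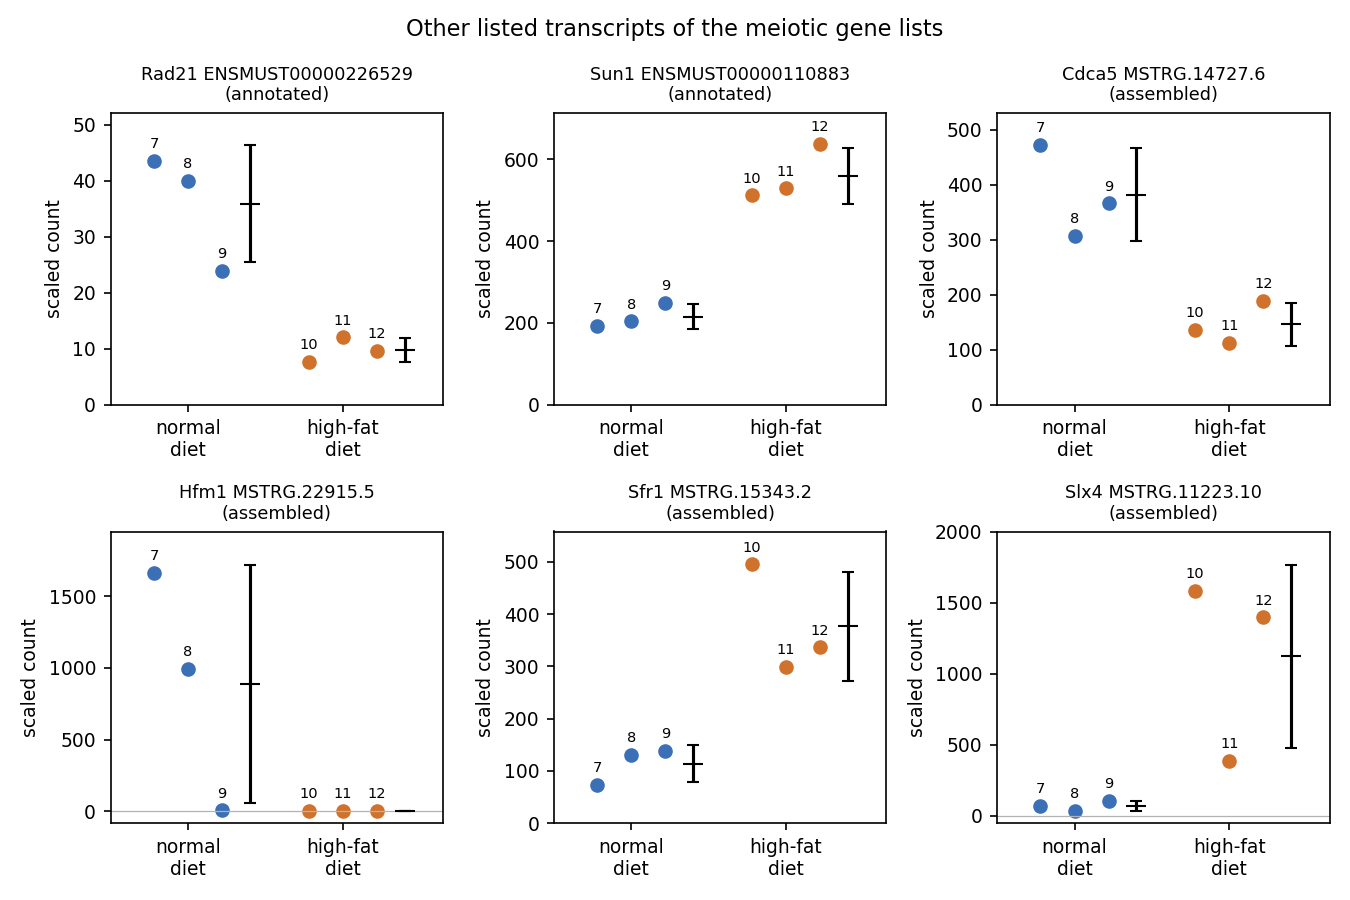
Scaled counts of the 6 listed transcripts of other meiotic genes, with 1 panel each. Points are libraries with their numbers, and the black mark and bar are the mean and SD of 3 libraries. Transcripts over Rad21, Cdca5 and Hfm1 are lower and those over Sun1, Sfr1 and Slx4 higher on the high-fat diet, and the normal-diet libraries of Hfm1 are far apart.

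Markers of the cells in testis could be followed only where a transcript was listed, as 0.868% of all transcripts tested were. The marker counts are over genes, and nothing is read from them against that share. Of 10 spermatocyte markers, the cell type in which Stag3 and Mlh3 act, 0 had an annotated listed transcript and 2 had an assembled one. MSTRG.23472.2 over Piwil1, a piRNA-binding protein, was higher, at 46.0 ± 24.8 and 199 ± 62.2 scaled counts. MSTRG.26666.2 over Ldhc, the germ-cell lactate dehydrogenase, had 9083, 0 and 19612 counts in libraries 7, 8 and 9 and 0 in each high-fat library. Their summed level ranged from 74.2 to 18101 in libraries 7 to 9, lowest in library 8, and from 162 to 270 in libraries 10 to 12. The low sum in library 8 is that of Ldhc. Piwil1 had 34, 78 and 30 counts in libraries 7, 8 and 9 and so was highest in library 8. Both assembled Stag3 transcripts were lowest in library 8 among the normal-diet libraries, as Ldhc was and Piwil1 was not. For peritubular and stromal cells, 3 of 8 markers were listed with 4 transcripts, and their summed level was 3975 to 5756 with normal food and 9646 to 12919 with high-fat food. The collagen gene Col1a1 and the matrix protein gene Sparc were higher. The 2 listed transcripts of the receptor gene Pdgfrb moved in opposite directions, one from 0 to 293 ± 28.8 scaled counts and the other from 293 ± 52.1 to 2.63 ± 4.56. For spermatogonia 1 of 10 markers was listed, a noncoding Nanos3 transcript, at 6.45 to 17.1 and at 0 to 1.10 scaled counts. For Leydig cells 1 of 8 was listed, Hsd3b6, at 1691, 1639 and 7.37 scaled counts in libraries 7 to 9 and at most 33.0 in a high-fat library, so that the diets overlapped. For round spermatids 1 of 10 was listed, an assembled transcript over Acr, at 8.51 to 11.4 and 29.0 to 101. Markers of Sertoli cells, of elongating spermatids and of macrophages and endothelium had 0 listed. The part of cell composition in the Stag3 and Mlh3 values was not tested.

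In the authors' deposited enrichment tables, MLH3 was a member of 10 of the 20 network neighbourhoods, each with q = 0.324, and of none of the 13 gene ontology sets or 2 pathways. STAG3 was a member of 0 sets in all 3 tables.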

How the data were processed

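Testis RNA was measured in 3 libraries per diet. The submitters' processing notes list Trimmomatic, HISAT2, StringTie, DESeq and GRCm38 but no versions. The deposited table holds estimated counts per transcript, which are whole numbers, and the same counts scaled and rounded by the authors, treated as a score. It also gives the authors' mean signal over libraries, fold change as a ratio and as log2, and a DESeq p-value with its adjusted value. The deposited enrichment tables give a p-value and q-value per set.

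Size factors were recovered as count over scaled count at counts of at least 5000 and ranged from 0.908 to 1.14. Listed rows that passed edgeR's low-count filter (minimum count 10) were fitted with edgeR 4.0.16 in R 4.3.3 (quasi-likelihood, these size factors). The Stag3 sum was fitted in place of its rows. The SE is the fold change over the square root of F. The step was checked on simulated data with a single dispersion for all rows, and only the median fold change had to be recovered. That dispersion was below the authors' value for every member except ENSMUST00000161113. The changed rows had means of at least 50 scaled counts, above that of the Mlh3 transcript. The check therefore does not cover the SE or the noisier members. The number of transcripts tested, 95751, was recovered from p, adjusted p and rank. TMM, DESeq2 1.42.0, no filter and leaving out each library were tried. Members and gene lists were chosen with earlier results of these data known. Named were all members, listed transcripts of the meiotic lists, and the 5 annotated transcripts with a mean of at least 50 scaled counts most like ENSMUST00000161113 and the Mlh3 transcript. Models came from GENCODE M21, promoters from RefSeq. All sample columns were used.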

Additional observations from a re-analysis of the deposited data

How the results depend on the processing

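Of 61 alternative values of the 6 log2 fold changes, 0 changed direction. The diets did not overlap in any member or in the sum, so leaving out a library could not reverse a direction. The members were also chosen for this contrast, and nothing is read from that count. TMM and DESeq2 size factors move the listed fold changes, by a median shift of -0.35 and -0.52 on the log2 scale, in a table that holds only called transcripts. ENSMUST00000161113 then came to -1.32 and -1.48, the Stag3 sum to -2.0 and -2.18, and MSTRG.23727.2 to -2.65 with the latter. Summing annotated transcripts only, chosen after the data were seen, gave -1.02 for Stag3. That value is the log2 ratio of mean scaled counts, without a fit or SE. Leaving out 1 library gave 5.01 to 9.09 for Mlh3. The highest value, without library 8, sets 0 counts on the normal diet and depends on the prior count. The other ranges were -2.38 to -1.84 for MSTRG.23727.2, -2.33 to -1.62 for MSTRG.23727.4, -4.79 to -3.73 for ENSMUST00000160729, -1.05 to -0.84 for ENSMUST00000161113 and -1.75 to -1.38 for the sum. Among annotated transcripts only, ENSMUST00000161113 held 95.4% and 99.5% of the Stag3 counts and ENSMUST00000160729 4.60% and 0.521%, by construction of the smaller total. Shares without 1 library moved by less than 1 SD, but that holds for any 3 values, so nothing is read from it. Without 1 library, the mean share of ENSMUST00000161113 ranged from 31.7% to 43.6% on the normal diet. On the high-fat diet it ranged from 52.7% to 59.8%. The list counts that follow are over 128 meiotic genes, Stag3 and Mlh3 included throughout, and 74 marker genes. Of all transcripts tested 0.868% were listed, and nothing is read from the counts against that share. Among annotated transcripts at an adjusted p under 0.05, 2 meiotic ones were higher and 3 lower, and 3 and 3 marker transcripts. Without Stag3 and Mlh3, 1 meiotic transcript was higher and 1 lower. At an adjusted p under 0.01, 2 meiotic transcripts were higher and 1 lower, and 2 and 1 marker transcripts. With a mean scaled count of at least 50, 1 meiotic transcript was higher and 2 lower. With assembled transcripts, 4 and 7 meiotic and 5 and 4 marker transcripts were higher and lower. No paired analysis was possible because the library numbers are not shared between the diets. Low counts limit Mlh3 and ENSMUST00000160729.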
